A study of Homo sapiens with 26 samples.

Results

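The 10 genes described here belong to the antioxidant and carbonyl-reducing response and were followed through every library of the study: the aldo-keto reductase genes AKR1B10, AKR1C1, AKR1C2 and AKR1C3, and GCLC, GCLM, NQO1, TXNRD1, SRXN1 and SLC7A11. They are 10 of the 62703 gene identifiers in the tables of Panc10.05 and BxPC3 and of the 62754 in the table of ASPC1, and each was found by its Ensembl identifier in all 3 tables. They were chosen by name, as known targets of the transcription factor NRF2, with their fold changes in these same libraries already known, so that the p-values below set each change against the spread of its replicates and lend no support to the list itself.

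The study measured poly(A) RNA in 26 libraries of 3 established human cell lines from pancreatic ductal adenocarcinoma, in which the nuclear receptor HNF4α, product of the HNF4A gene, had been induced or repressed. Panc10.05 and BxPC3 carried a doxycycline-inducible construct labelled P1-a2 or P2-a8, after isoforms that start at the P1 or the P2 promoter of HNF4A, or a control labelled NC, which the titles call GFP-NC in Panc10.05 and EV-NC in BxPC3. All 6 of these groups had 2 libraries and were given doxycycline, at 500 ng/mL in every BxPC3 group, at 25 ng/mL in the P1-a2 and NC groups of Panc10.05 and at 12.5 ng/mL in its P2-a8 group, so that isoform and dose cannot be told apart in that line. ASPC1 cells, 14 libraries, underwent CRISPR interference, in which a guide RNA brings an inactive Cas9 repressor to a promoter, with guides sgP1E and sgP1J (group sgP1), sgP2D and sgP2G (sgP2), sgDual2 and sgDual3 against both isoforms (sgDual), and a control guide, sgNC. Each guide had 2 libraries, so that sgP1, sgP2 and sgDual had 4 each and sgNC 2. The main fit of ASPC1 treated the 4 libraries of a target as separate replicates, although libraries that share a guide are not independent for the target. The labels do not say whether replicates were separate cultures or whether a line was a clone, so the p-values may measure technical spread only.

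NRF2, encoded by NFE2L2, is held at a low level by KEAP1, which brings it to a ubiquitin ligase. When electrophiles or oxidants modify KEAP1, NRF2 accumulates, pairs with a small MAF protein and binds the antioxidant response element (ARE) of its targets. SLC7A11, the cystine importer, together with GCLC and GCLM, the catalytic and modifier subunits of glutamate-cysteine ligase, supplies and starts glutathione synthesis. TXNRD1 (thioredoxin reductase) and SRXN1 (sulfiredoxin, which repairs overoxidised peroxiredoxins) keep protein thiols reduced. NQO1 reduces quinones, and the aldo-keto reductases reduce aldehydes and ketones with NADPH, AKR1B10 acting on retinaldehyde and lipid aldehydes and AKR1C1, AKR1C2 and AKR1C3 acting on steroids and prostaglandins.

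The AKR1C genes are near-identical neighbours on chromosome 10, and this bears on every value printed for them. On GRCh38, in the GENCODE v29 annotation, AKR1C1 lies at chr10:4963253-4983283 on the plus strand, AKR1C2 at chr10:4987400-5018031 on the minus strand and AKR1C3 at chr10:5035354-5107686 on the plus strand. The coding sequences of AKR1C1 and AKR1C2, 969 bases each, differed at 19 positions (98% identity), and AKR1C3 was 91.4% identical to AKR1C1. Of the 19 differences, 10 fall within the 60 coding bases from position 103 to 162, shown here because reads that span it can be told apart by copy. Capitals in AKR1C1 mark the bases that differ from AKR1C2, and capitals in AKR1C2 and AKR1C3 mark those that differ from AKR1C1 (7 in AKR1C3).
AKR1C1: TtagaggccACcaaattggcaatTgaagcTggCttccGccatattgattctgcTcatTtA
AKR1C2: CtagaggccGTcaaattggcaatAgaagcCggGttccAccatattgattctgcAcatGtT
AKR1C3: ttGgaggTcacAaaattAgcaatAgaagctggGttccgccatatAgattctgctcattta
Windows of 150 bases were taken along the transcript with the longest coding sequence, of 6705 bases for AKR1C1 and 3756 for AKR1C2. AKR1C1 and AKR1C2 had 743 windows in common. These were 11.3% of the windows of AKR1C1, and 21.2% of those of AKR1C2 occurred in AKR1C1 or AKR1C3. Such shares depend on the transcript length and are not shares of the reads. The share was 1.33% for AKR1C3 and 0 for AKR1B10. How reads that match several genes were counted is not given in the sources used here, so the division of counts between AKR1C1 and AKR1C2 is uncertain, while their sum and AKR1C3 are less so. SRXN1 is uncertain for another reason: 84.2% of its windows also belong to AL121758.1, an annotated gene that overlaps it on the same strand of chromosome 20, and AL121758.1 was listed at 0 counts in every library. Of the remaining genes, AKR1B10 lies at chr7:134527592-134541408 and TXNRD1 at chr12:104215779-104350305 on the plus strand, and GCLC at chr6:53497341-53616970, GCLM at chr1:93885205-93909456, NQO1 at chr16:69706996-69726951, SRXN1 at chr20:646615-653370 and SLC7A11 at chr4:138164097-138242349 on the minus strand. GCLC shares 529 exon bases with a lincRNA on its own strand, and NQO1 and SLC7A11 overlap antisense transcripts.

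RefSeq promoter sequences (GRCh38.p14, 300 bases from 250 before to 50 after the start) were at hand for 8 of the 10 genes, all but AKR1B10 and SLC7A11. The ARE core was searched as TGACNNNGC on both strands and was present for 2 of these 8, GCLM and TXNRD1, beside 13.3% of 35116 promoters. AKR1C1, AKR1C2, AKR1C3, GCLC, NQO1 and SRXN1, which like GCLM and TXNRD1 passed the threshold in some comparison, had no core in these windows. The stretches that hold it are shown with the core, or its reverse complement where it lies on the opposite strand, in capitals. They are read 5′ to 3′ on the gene's strand. In GCLM the core lies on the opposite strand and its first base is 34 bases before the start (chr1:93909436-93909484, minus strand). TXNRD1 has an entry for each of 2 starts, with cores 99 and 8 bases before the one (chr12:104215660-104215799, plus strand) and 102 bases before the other (chr12:104286910-104286958, plus strand).
GCLM: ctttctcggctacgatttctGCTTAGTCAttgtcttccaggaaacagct
TXNRD1, upstream start: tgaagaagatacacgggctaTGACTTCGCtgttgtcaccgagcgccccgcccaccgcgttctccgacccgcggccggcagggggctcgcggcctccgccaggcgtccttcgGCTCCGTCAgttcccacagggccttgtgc
TXNRD1, downstream start: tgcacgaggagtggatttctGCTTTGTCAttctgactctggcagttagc
The letters CAAAGTCCA, a motif bound by HNF4, were in none of the 8, beside 0.384% of all promoters. The promoter windows of AKR1C1 and AKR1C2 shared an unbroken run of 245 identical bases of 300. A match describes the letters only, and these windows leave out more distant elements.

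Depth was 34618745 to 46827673 counts per library in Panc10.05, 26369154 to 37483772 in BxPC3 and 26079388 to 50662077 in ASPC1. Levels are given in CPM, the usual count relative to library size, here after TMM scaling, and compare libraries for the same gene. HNF4A, whose level checks the labels, was at 0.240 and 0.0580 CPM in Panc10.05 NC, 10.7 and 12.98 in P1-a2 and 37.6 and 37.6 in P2-a8. In BxPC3 it was at 1.08 and 0.464 CPM in NC, 9.76 and 11.6 in P1-a2 and 12.6 and 14.2 in P2-a8. In ASPC1 HNF4A was at 206 and 219.8 CPM in sgNC, 109 to 146 in sgP1, 76.8 to 93.8 in sgP2 and 3.19 to 13.6 in sgDual, with no overlap between sgNC and the other groups. The epithelial markers KRT8, KRT18, KRT19, EPCAM and CDH1 were all detected in every library and summed to at least 4672 CPM. Summed fibroblast markers reached at most 13.2 CPM and summed endothelial markers at most 9.12 CPM. The immune list reached 78.5 CPM in ASPC1, of which LYZ gave 10.4 to 76.4 CPM, while CD3E was at 0 in all ASPC1 libraries. In such bulk RNA, fewer expressing cells and less RNA per cell cannot be told apart.

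The lines started from different levels of these genes. Levels per length, on the TPM scale, were computed from the counts and the joined length of all annotated exons of a gene. This length was 8765 bases for AKR1C1, 8646 for GCLC and 1744 for AKR1B10. It can exceed that of a transcript, as for GCLC, whose transcript with the longest coding sequence has 2289 bases. The order of genes given here depends on this choice of length. In Panc10.05 NC the highest of the 10 were TXNRD1, at 290.2 ± 15.9 TPM (SD, n = 2), and NQO1, at 130.5 ± 0.285 TPM, while AKR1B10 and AKR1C2 had no counts. In BxPC3 NC the order began with NQO1 (206 ± 3.67 TPM) and AKR1B10 (191 ± 6.09 TPM). In CPM, which takes no length into account, AKR1C1 (122 in the mean) stood above AKR1B10 (94.8) there. In ASPC1 sgNC it began with NQO1 (414 ± 26.8 TPM), TXNRD1 (394 ± 9.81 TPM) and AKR1C3 (262 ± 9.99 TPM), of which the first pair did not differ beyond their spread.

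The lowest gene of ASPC1 sgNC was AKR1B10, at 3.62 ± 0.944 TPM, and that of BxPC3 NC was SRXN1, at 16.3 ± 0.547 TPM, within the spread of AKR1C2 (17.1 ± 2.33 TPM). GCLM, at 34.7 ± 1.05 TPM in BxPC3 NC and 32.0 ± 2.87 in Panc10.05 NC, was at 6.08 ± 0.980 in ASPC1 sgNC, where its partner subunit GCLC was at 29.9 ± 0.606. The titles number the libraries of each line in a series of its own, so line and library series cannot be told apart.

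**Figure D1:**
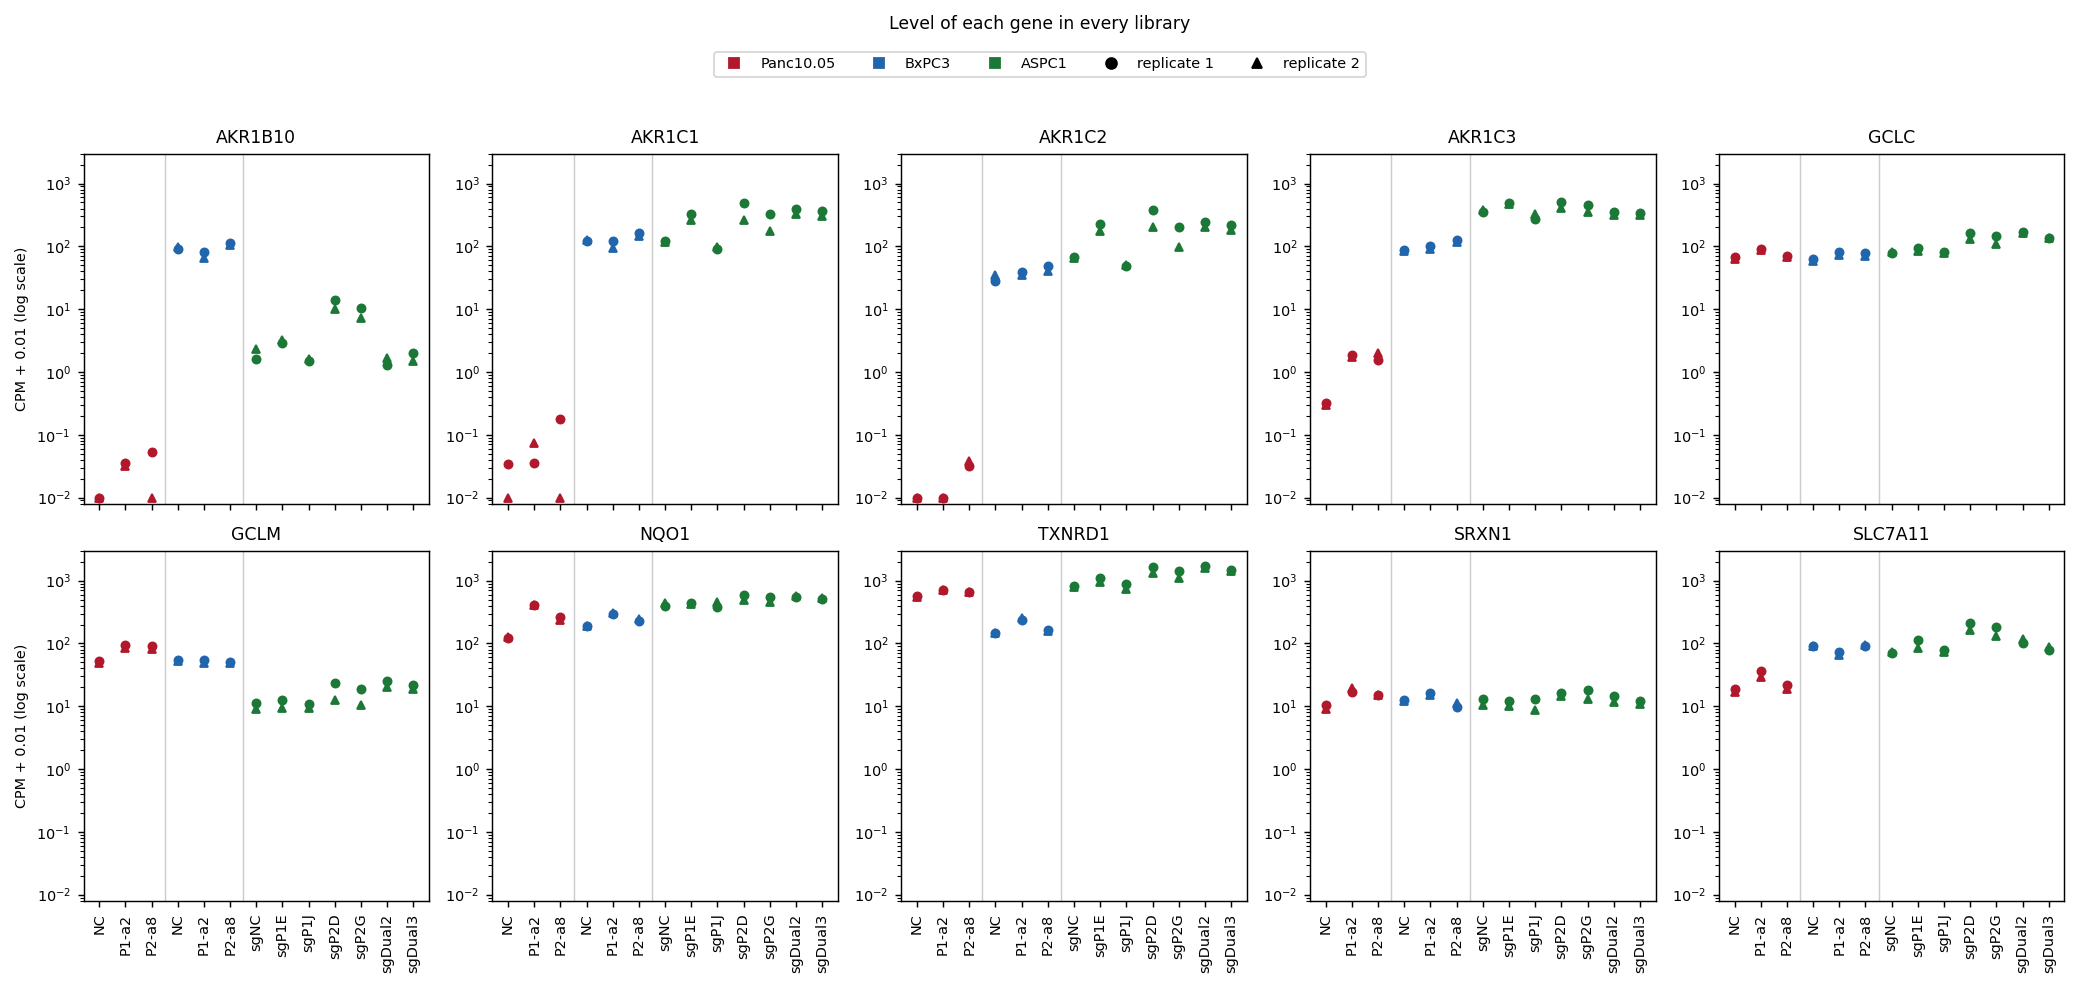
Level of each of the 10 genes in every library, as CPM + 0.01 on a log axis, by line and group or guide, with replicate 1 as a circle and replicate 2 as a triangle. AKR1B10, AKR1C1 and AKR1C2 lie at or near 0 in Panc10.05, while NQO1 and TXNRD1 are above 100 CPM in every library.

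In Panc10.05 most of the aldo-keto reductases of the list were all but silent. AKR1B10 had at most 2 counts and AKR1C2 at most 1 count in a library. AKR1C1 had 8 counts in P2-a8 replicate 1 and at most 3 elsewhere. A count of 0 allows a level of up to 3 counts, 0.0641 to 0.0867 CPM in these libraries, a limit that covers counting error only. These 3 genes did not pass the filter on low counts, and no fold change is given for them.

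The 7 other genes all rose with P1-a2 against NC (adjusted p under 0.05, edgeR's quasi-likelihood test with Benjamini-Hochberg adjustment over all genes), beside 31.5% of the 17247 genes tested that rose and 30.5% that fell. The median log2 change was 0.86 over the 7 and 0.02 over all genes. With P2-a8, 5 of the 7 rose (AKR1C3, NQO1, GCLM, SRXN1 and TXNRD1) and none fell, beside 23.7% and 22.5%. P1-a2 was above P2-a8 for 4 of the 7 (NQO1, SLC7A11, GCLC and SRXN1) and below it for none, beside 22.2% and 24.7%. Both isoforms were set against the same NC libraries. Of the epithelial markers 3 of 5 rose and 1 fell with P1-a2, and 5 rose with P2-a8. Of markers of other cells, 1 of 2 fibroblast genes tested rose with each isoform and both immune genes tested rose with P2-a8, in lists that summed to at most 7.16 and 1.94 CPM in this line. The part of these markers was not tested.

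NQO1 was at 122 and 127 CPM in Panc10.05 NC, 417 and 403 in P1-a2 and 261 and 234 in P2-a8, so that no groups overlapped. The log2 change was 1.72 ± 0.0625 (SE) with P1-a2 (adjusted p = 8.17e-26, edgeR), a 3.30-fold rise, and 0.99 ± 0.0618 with P2-a8 (adjusted p = 3.2e-17). P1-a2 stood above P2-a8 by 0.73 ± 0.0605 on the log2 scale.

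AKR1C3 was the 1 aldo-keto reductase of the list that could be tested in Panc10.05, from few reads. It had 13 and 10 counts in NC, 72 and 79 in P1-a2 and 72 and 71 in P2-a8, both isoforms above the control and overlapping each other. The log2 changes were 2.55 ± 0.323 and 2.52 ± 0.325, a 5.85-fold and a 5.76-fold rise. In level, AKR1C3 with P1-a2 (1.85 and 1.72 CPM) remained far below its level in BxPC3 NC (86.9 and 85.7 CPM).

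The subunits of glutamate-cysteine ligase parted between P1-a2 and P2-a8, groups that in Panc10.05 also differed in dose. GCLM was at 52.9 and 48.4 CPM in NC, 95.0 and 84.7 in P1-a2 and 89.8 and 80.4 in P2-a8, and rose with both (0.83 ± 0.0709 and 0.75 ± 0.0710). GCLC was at 66.7 and 63.3 CPM in NC, 89.7 and 87.9 in P1-a2 and 70.5 and 66.6 in P2-a8, where P2-a8 sat close to NC. It rose with P1-a2 (0.45 ± 0.0648) and did not pass with P2-a8 (0.08 ± 0.0653, adjusted p = 0.352, edgeR), and the difference between isoforms was itself past the threshold (0.37 ± 0.0644).

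SLC7A11, the cystine importer, was at 18.9 and 17.1 CPM in NC, 36.0 and 29.4 in P1-a2 and 22.0 and 19.0 in P2-a8, highest with P1-a2. It rose with P1-a2 (0.86 ± 0.0954) and stood above P2-a8 there by 0.67 ± 0.0937. With P2-a8 it was 0.19 ± 0.0982 above NC (adjusted p = 0.114, edgeR), and 0.30 (adjusted p = 0.0307) without P2-a8 replicate 2.

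TXNRD1, already the most abundant of the 10 in Panc10.05, changed least of the 7 with P1-a2. It was at 580.4 and 558 CPM in NC, 714 and 720.5 in P1-a2 and 663 and 653 in P2-a8, with no overlap with NC and log2 changes of 0.33 ± 0.0577 and 0.21 ± 0.0577. SRXN1 was at 10.6 and 9.13 CPM in NC, 17.1 and 19.8 in P1-a2 and 15.4 and 14.96 in P2-a8, with log2 changes of 0.90 ± 0.103 and 0.62 ± 0.105. Its difference between isoforms (0.28 ± 0.0977, adjusted p = 0.0151, edgeR) was lost in DESeq2 (adjusted p = 0.0548) and without P2-a8 replicate 1 (0.0632), P1-a2 replicate 2 (0.17, adjusted p = 0.270) or P2-a8 replicate 2 (0.105).

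**Figure D2:**
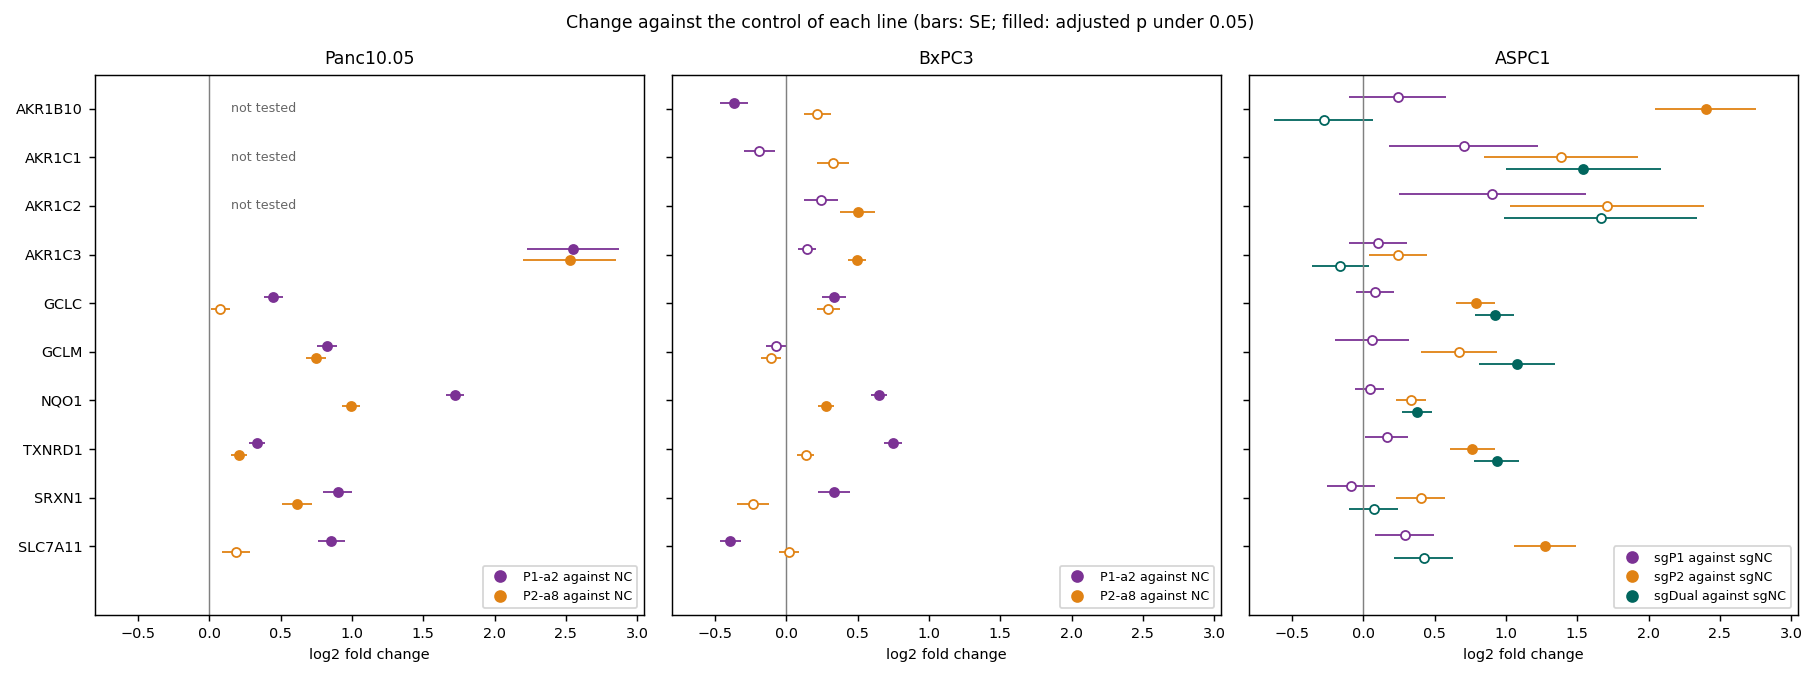
Log2 fold change against the control of each line, with its SE, for the 10 genes in Panc10.05, BxPC3 and ASPC1 on a common axis. Filled points have an adjusted p under 0.05; AKR1B10, AKR1C1 and AKR1C2 were not tested in Panc10.05, and in ASPC1 no point of sgP1 is filled.

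In BxPC3 all 10 genes were expressed, and changes went both ways. With P1-a2 against NC, 4 rose (TXNRD1, NQO1, SRXN1 and GCLC), beside 17.1% of the 17635 genes tested, and 2 fell (SLC7A11 and AKR1B10), beside 14.9%. With P2-a8, 3 rose (AKR1C2, AKR1C3 and NQO1), beside 4.3%, and none fell, beside 2.69%; with the replicate number as a block 6 rose. Between isoforms, here at equal dose, 3 genes were higher with P1-a2 (TXNRD1, SRXN1 and NQO1) and 4 lower (AKR1B10, AKR1C1, SLC7A11 and AKR1C3), beside 11.6% and 10.8%. The median log2 change over the 10 was 0.20 with P1-a2 and 0.25 with P2-a8, beside -0.01 and 0.01 over all genes. Of the epithelial markers 4 of 5 rose with P1-a2 and 5 with P2-a8, while with P1-a2 1 of 3 immune genes tested rose and 1 of 3 fibroblast genes fell, in lists of at most 4.33 and 13.2 CPM; their part was not tested.

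TXNRD1 was at 144 and 148 CPM in BxPC3 NC, 234 and 258 in P1-a2 and 162 and 160.1 in P2-a8, so that P1-a2 stood apart. It rose with P1-a2 by log2 0.75 ± 0.0602 (adjusted p = 4.63e-06, edgeR), a 1.68-fold change, and was 0.61 ± 0.0600 above P2-a8. With P2-a8 against NC it was 0.14 ± 0.0602 (adjusted p = 0.224, and 0.0436 with the replicate block).

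NQO1 was at 193 and 189.9 CPM in BxPC3 NC, 298 and 302 in P1-a2 and 224 and 241 in P2-a8, in the same order of groups as in Panc10.05. The log2 changes were 0.65 ± 0.0557 and 0.28 ± 0.0557, and the isoforms differed by 0.37 ± 0.0554. The P2-a8 call (adjusted p = 0.0112, edgeR) was lost without NC replicate 1 (0.0822), NC replicate 2 (0.126) or P2-a8 replicate 2 (0.137).

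SLC7A11 fell in BxPC3 with P1-a2, where it rose in Panc10.05. It was at 90.4 and 92.7 CPM in NC, 74.5 and 65.3 in P1-a2 and 89.9 and 95.7 in P2-a8, with a log2 change of -0.39 ± 0.0709 with P1-a2 (adjusted p = 0.00149, edgeR) and 0.02 ± 0.0703 with P2-a8. GCLM was at 54.5 and 52.7 CPM in NC, 53.7 and 48.5 in P1-a2 and 50.9 and 48.7 in P2-a8, and neither value passed the test (-0.07 ± 0.0700 and -0.10 ± 0.0701).

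GCLC, its partner subunit, was at 63.5 and 58.1 CPM in NC, 81.0 and 72.3 in P1-a2 and 79.2 and 69.8 in P2-a8, both isoforms above NC. The P1-a2 call (0.33 ± 0.0814, adjusted p = 0.00867, edgeR) was lost without P1-a2 replicate 1 (0.0591) or NC replicate 2 (0.0915). With P2-a8 the value was 0.30 ± 0.0815 (adjusted p = 0.0547, and 0.000445 with the replicate block). Between isoforms, here at equal dose, GCLC did not pass (0.04 and adjusted p = 0.592 in edgeR with the replicate block).

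SRXN1 was at 12.8 and 12.3 CPM in BxPC3 NC, 16.3 and 15.4 in P1-a2 and 9.87 and 11.4 in P2-a8, with P2-a8 the lowest. Its rise with P1-a2 (0.34 ± 0.109, adjusted p = 0.0358, edgeR) was lost in DESeq2 (0.0706), with total count scaling (0.0518) and when any 1 of the 4 libraries compared was left out (adjusted p from 0.0696 to 0.182). P1-a2 was above P2-a8 by 0.57 ± 0.110.

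The 4 aldo-keto reductases of the list each had their highest mean level in BxPC3 with P2-a8, where AKR1C2 and AKR1C3 passed against NC and AKR1B10, AKR1C1 and AKR1C3 against P1-a2. AKR1B10 was at 92.2 and 97.4 CPM in NC, 81.7 and 65.5 in P1-a2 and 115 and 106 in P2-a8, with no overlap between groups. It fell with P1-a2 (-0.37 ± 0.0955, adjusted p = 0.0155, edgeR), a call lost without P1-a2 replicate 2 (-0.22, adjusted p = 0.0695) or NC replicate 2 (0.0826), and was lower with P1-a2 than with P2-a8 (-0.58 ± 0.0952). AKR1C3 was at 86.9 and 85.7 CPM in NC, 100.4 and 90.6 in P1-a2 and 126 and 118 in P2-a8. It rose with P2-a8 (0.50 ± 0.0653, adjusted p = 0.000873), and with P1-a2 it was 0.15 ± 0.0655 (adjusted p = 0.116, and 0.0245 with the replicate block).

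AKR1C2 was at 28.3 and 34.7 CPM in BxPC3 NC, 39.4 and 35.6 in P1-a2 and 49.2 and 40.2 in P2-a8. It rose with P2-a8 (0.50 ± 0.120, adjusted p = 0.0361, edgeR), a call lost with only these 2 groups fitted (0.0550), without P2-a8 replicate 1 (0.33, adjusted p = 0.152) or NC replicate 1 (0.197). AKR1C1 was at 119.7 and 125 CPM in NC, 121 and 93.8 in P1-a2 and 161 and 146 in P2-a8, and both P2-a8 libraries lay above the others. With P2-a8 against NC it was 0.33 ± 0.109 (adjusted p = 0.134, 0.0271 with the replicate block). It was lower with P1-a2 than with P2-a8 (-0.52 ± 0.110, adjusted p = 0.0118, and 0.0566 without P2-a8 replicate 1). Summed over AKR1C1, AKR1C2 and AKR1C3, which removes the division between copies, the log2 change was 0.41 with P2-a8 (adjusted p = 0.0116) and 0.00 with P1-a2 (adjusted p = 0.994).

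The difference in response between the 2 induced lines was tested in a joint fit of their 12 libraries. With P1-a2 against NC, 6 of the 7 genes tested in both lines differed, beside 36.4% of 19372 genes in either direction. Those 19372 genes passed the filter of the joint fit and include genes that were not tested in both lines. The log2 change was higher in Panc10.05 for AKR1C3 (by 2.41 ± 0.256), SLC7A11 (1.26 ± 0.135), NQO1 (1.09 ± 0.0866), GCLM (0.90 ± 0.108) and SRXN1 (0.58 ± 0.158). TXNRD1 went the other way (-0.40 ± 0.0813, adjusted p = 0.00034, edgeR). GCLC did not pass (0.13 ± 0.103), and SRXN1 was lost without Panc10.05 P1-a2 replicate 2 (adjusted p = 0.0521) or NC replicate 2 (0.0517).

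With P2-a8 against NC, 4 of the 7 differed, beside 23.5% of the genes of that fit, each higher in Panc10.05: AKR1C3 (2.02 ± 0.262), GCLM (0.85 ± 0.109), SRXN1 (0.85 ± 0.162) and NQO1 (0.71 ± 0.0867). SLC7A11 (0.17 ± 0.137), TXNRD1 (0.07 ± 0.0816) and GCLC (-0.22 ± 0.103) did not pass. The lines differed in dose of doxycycline, control construct (GFP-NC or EV-NC) and library series, and these cannot be told apart from the line. They also differed in the HNF4A level reached with P2-a8 (37.6 and 37.6 CPM in Panc10.05 and 12.6 and 14.2 in BxPC3), and its part was not tested.

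**Figure D3:**
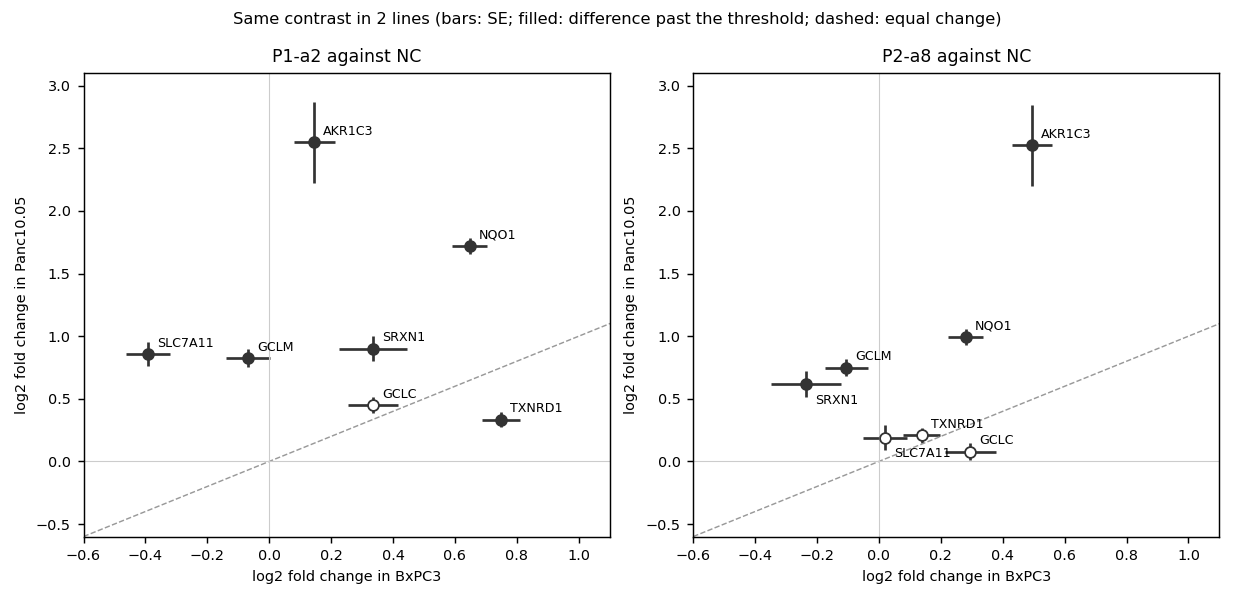
Log2 fold change of the 7 genes tested in both lines, in Panc10.05 against BxPC3, under P1-a2 and under P2-a8, with SE; the dashed line marks equal change. Filled points differ between the lines past the threshold, among them AKR1C3, NQO1, GCLM and SRXN1 under both isoforms.

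In ASPC1, guides against P2 were accompanied by higher AKR1B10, SLC7A11, GCLC and TXNRD1. These 4 of the 10 genes rose in sgP2 against sgNC, beside 1.66% of 16992 genes, and none fell, beside 1.76%. The replicate block added GCLM and SRXN1, for 6. The median log2 change was 0.78 over the 10 and 0.00 over all genes. Of the immune list, 1 of the 2 genes tested fell in sgP2, and mitochondrial genes took 7.74% to 8.36% of counts in sgP2 and 8.37% to 9.24% in sgNC. The part of either in these values was not tested.

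AKR1B10 was at 1.58 and 2.31 CPM in sgNC, 13.8 and 10.06 under sgP2D and 10.3 and 7.10 under sgP2G, with every sgP2 library above every sgNC library. The log2 change was 2.40 ± 0.351 (adjusted p = 0.00295, edgeR), a 5.27-fold rise. In sgDual its 4 libraries, at 1.26 to 2.03 CPM, overlapped sgNC (-0.28 ± 0.347). The change in sgDual against sgP2 was -2.67 ± 0.271 (adjusted p = 2.98e-06).

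SLC7A11 was at 70.3 and 72.9 CPM in sgNC, 215 and 163 under sgP2D, 180.5 and 134 under sgP2G and 78.3 to 116 in sgDual, also highest in sgP2. It rose in sgP2 (1.27 ± 0.216, adjusted p = 0.00791, edgeR) and did not pass in sgDual (0.42 ± 0.208, adjusted p = 0.132). In sgDual against sgP2 it was -0.85 ± 0.167, past the threshold.

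GCLC and TXNRD1 were high in sgP2 and sgDual alike. GCLC was at 78.4 and 81.1 CPM in sgNC, 109.7 to 164 in sgP2 and 137 to 169 in sgDual, and rose in both (0.79 ± 0.137 and 0.92 ± 0.138). TXNRD1 was at 827 and 802 CPM in sgNC, 1107 to 1677 in sgP2 and 1434 to 1712 in sgDual, and rose in both (0.76 ± 0.158 and 0.94 ± 0.159). Between sgDual and sgP2 neither passed (0.13 ± 0.108 and 0.17 ± 0.125).

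With 1 sgNC library the sgP2 changes kept about their size, but most lost their call. Without sgNC replicate 1 none of the 4 passed: the log2 change was 2.14 for AKR1B10 (adjusted p = 0.0744, edgeR), 0.75 for GCLC (0.117), 1.24 for SLC7A11 (0.125) and 0.78 for TXNRD1 (0.160). Without sgNC replicate 2, AKR1B10 alone passed. Against sgP1, which has 4 libraries from 2 guides, the same 4 genes were higher in sgP2, beside 2.17% of all genes, and none lower, beside 2.13%. Those log2 changes were 2.16 ± 0.261 for AKR1B10, 0.98 ± 0.168 for SLC7A11, 0.70 ± 0.109 for GCLC and 0.60 ± 0.125 for TXNRD1, the last lost without sgP2D replicate 1 (adjusted p = 0.0515) and with only these 2 groups fitted (0.0835). With the block GCLM (0.58, adjusted p = 0.0137) and SRXN1 (0.50, adjusted p = 0.00218) joined them.

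Within sgP2, the libraries numbered 1 lay above those numbered 2 for all 10 genes under both guides. The share over all genes is not given here, so this order may not be particular to the 10. AKR1C1 was at 487 and 261 CPM in replicates 1 and 2 of sgP2D and 323 and 176 in those of sgP2G, and GCLM at 23.1 and 12.7 and at 18.6 and 10.5. Over the 7 guides, replicate 1 exceeded replicate 2 in all 7 for GCLM, TXNRD1 and SRXN1. GCLM was 0.67 ± 0.264 above sgNC in sgP2 (adjusted p = 0.197, edgeR, and 0.0315 with the replicate block). SRXN1, at 12.96 and 10.5 CPM in sgNC and 13.3 to 18.1 in sgP2, was 0.40 ± 0.172 above sgNC (adjusted p = 0.235, and 0.0302 with the block).

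Guides against both isoforms gave a different set of calls. In sgDual against sgNC, 5 of 10 rose (AKR1C1, GCLM, TXNRD1, GCLC and NQO1), beside 17.8% of all genes, and none fell, beside 17.8%. In sgDual against sgP1, 4 rose (GCLM, GCLC, TXNRD1 and NQO1), beside 18.6%, and none fell, beside 19.7%. In sgDual against sgP2 none rose, beside 22.8% (edgeR; 4 of the 10 had an unadjusted p under 0.05 in either direction), and 2 fell (AKR1B10 and SLC7A11), beside 23.5%. With the replicate block GCLM (0.45, adjusted p = 0.00739) and SRXN1 (-0.33, adjusted p = 0.00346) also passed there, and in DESeq2 AKR1C3 also fell (-0.40, adjusted p = 0.0328).

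GCLM was at 11.3 and 9.02 CPM in sgNC and 25.3, 20.5, 21.4 and 18.6 in sgDual, all above sgNC. It rose by log2 1.08 ± 0.266 (adjusted p = 0.00658, edgeR, and 0.0738 without sgNC replicate 2). NQO1 was at 395 and 435 CPM in sgNC and 503 to 573 in sgDual, a rise of 0.38 ± 0.105 (adjusted p = 0.0112, and 0.152 without sgNC replicate 1). In sgP2 NQO1 was at 453 to 599 CPM and did not pass in the edgeR fit by genotype (0.34 ± 0.105). There it passed in DESeq2 (adjusted p = 0.0417) and in the edgeR fit by guide (adjusted p = 0.0431). Between sgDual and sgP2 NQO1 did not pass (0.04 and adjusted p = 0.707 in edgeR with the replicate block). SRXN1, at 10.8 to 14.8 CPM in sgDual, overlapped sgNC (0.07 ± 0.171). Mitochondrial genes took 9.23% to 9.88% of counts in sgDual, and the part of this in these values was not tested.

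In sgP1 against sgNC none of the 10 genes passed the edgeR test, none had an unadjusted p under 0.05 and DESeq2 called none, beside 0.1% of all genes higher and 0.165% lower. The guides of this group differed from each other. sgP1E was above sgP1J for 4 of the 10 (AKR1C2, AKR1C1, AKR1B10 and AKR1C3), beside 14.5% of genes in either direction. sgP2D and sgP2G (1.69% of genes) and sgDual2 and sgDual3 (0.883%) differed for none of the 10 in the main edgeR fit or DESeq2, with 1 and 2 at an unadjusted p under 0.05. Other edgeR settings called AKR1C1 and AKR1C2 between the sgP2 guides, and GCLC and SLC7A11 between the sgDual guides.

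AKR1C2 was at 229 and 174 CPM under sgP1E and 48.4 and 49.6 under sgP1J, on either side of the 68.5 and 65.6 of sgNC. The guides differed by log2 2.04 ± 0.361 (adjusted p = 0.00517, edgeR). AKR1C1 was at 325 and 263 CPM against 90.9 and 98.0, a difference of 1.64 ± 0.321. AKR1C3 showed a smaller gap, at 495 and 475 CPM against 273 and 329.6, or 0.69 ± 0.130. AKR1B10 was at 2.92 and 3.16 CPM against 1.46 and 1.58, or 1.00 ± 0.266.

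Of these, AKR1B10 was lost when any 1 of the 4 libraries was left out (adjusted p from 0.0617 to 0.113, edgeR), and AKR1C1 without sgP1E replicate 1 (0.0557), sgP1J replicate 1 (0.0524) or sgP1J replicate 2 (0.0507). With the replicate block TXNRD1 also differed between the guides (0.35, adjusted p = 0.00212). HNF4A was at 144 and 146 CPM under sgP1E and 118 and 109 under sgP1J, and 3 of the 5 epithelial markers were lower under sgP1E; the part of either was not tested.

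Set against sgNC guide by guide, the 10 genes gave 2 higher and none lower under sgP1E (beside 8.62% of genes in either direction), none under sgP1J (beside 3.04%; none at an unadjusted p under 0.05), 7 under sgP2D (beside 8.52%) and 4 under sgP2G (beside 8.16%). There were 7 under sgDual2 (beside 36.9%) and 6 under sgDual3 (beside 37.2%). These 6 comparisons share the sgNC libraries.

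**Figure D4:**
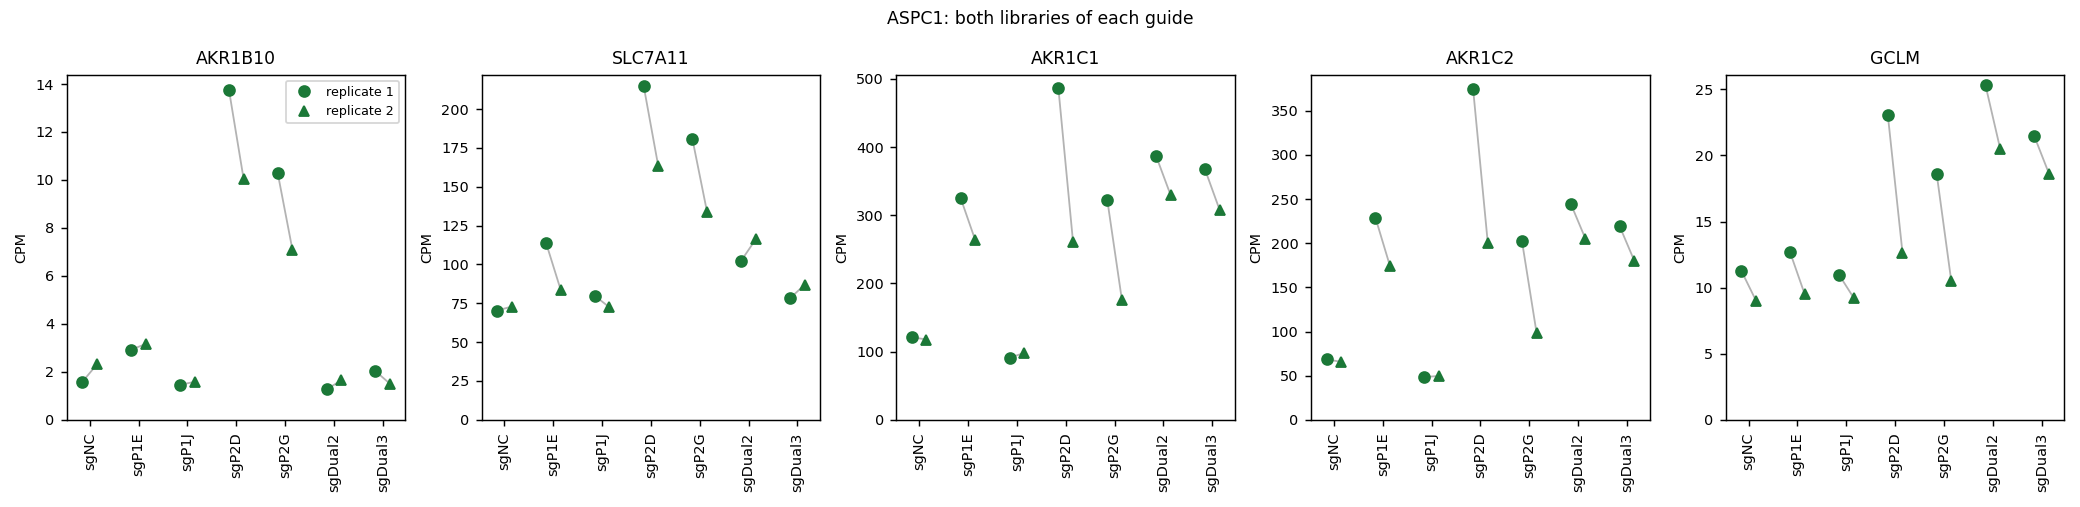
Level in CPM of 5 genes in both libraries of each ASPC1 guide, replicate 1 as a circle and replicate 2 as a triangle. AKR1B10 and SLC7A11 are highest under the sgP2 guides, AKR1C1 and AKR1C2 are above sgNC under sgP1E and the sgP2 and sgDual guides, and replicate 1 of GCLM is above replicate 2 for every guide.

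AKR1C1 and AKR1C2 kept side by side in sgP2 and sgDual, apart from AKR1C3. Between sgP1E and sgP1J, AKR1C3 went the same way as both, with a smaller gap. AKR1C1 was at 121 and 118 CPM in sgNC, 176 to 487 in sgP2 and 308 to 387 in sgDual. AKR1C2 was at 68.5 and 65.6 CPM in sgNC, 98.4 to 375 in sgP2 and 180.2 to 245 in sgDual. Every sgP2 and sgDual library of both genes lay above sgNC. In the fit by genotype, whose estimate of spread includes the gap between sgP1E and sgP1J, AKR1C1 was 1.38 ± 0.540 in sgP2 (adjusted p = 0.205, edgeR) and 1.54 ± 0.544 in sgDual (adjusted p = 0.0459). AKR1C2 was 1.71 ± 0.681 (adjusted p = 0.217) and 1.66 ± 0.680 (adjusted p = 0.0793).

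The AKR1C1 call in sgDual was lost with no filter on low counts (adjusted p = 0.109, edgeR) and when any 1 of the 6 libraries compared was left out (adjusted p from 0.0594 to 0.212, edgeR). In the fit by guide, which keeps that gap out of the spread, both genes passed in sgP2 (adjusted p = 0.0158 for AKR1C1 and 0.0113 for AKR1C2), and AKR1C2 passed in sgDual (0.00267).

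AKR1C3 was at 355 and 377 CPM in sgNC, 351 to 508 in sgP2 and 312 to 346 in sgDual, and passed in neither (0.24 ± 0.203 and -0.16 ± 0.200). The makeup of the AKR1C counts differed with it. AKR1C3 made up 65.2% and 67.3% of them in sgNC, 37.1% to 56.1% in sgP2 and 35.4% to 39.0% in sgDual. Within sgP1 it made up 47.2% and 52.1% under sgP1E and 66.2% and 69.1% under sgP1J.

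The division between the nearest copies moved less. AKR1C1 took 63.9% and 64.2% of the counts of AKR1C1 and AKR1C2 in sgNC, 56.5% to 64.2% in sgP2 and 61.3% to 63.1% in sgDual. In BxPC3 it took 80.9% and 78.2% in NC, 75.4% and 72.5% in P1-a2 and 76.6% and 78.5% in P2-a8. Summed over AKR1C1, AKR1C2 and AKR1C3, the log2 change was 0.68 in sgDual (adjusted p = 0.176, edgeR) and 0.80 in sgP2 (adjusted p = 0.291), so that the AKR1C1 call of sgDual did not carry over to the sum. The gap between sgP1E and sgP1J did, at 1.14 (adjusted p = 0.00944). The sum includes AKR1C3, which made up 65.2% and 67.3% of it in sgNC and did not pass in sgDual. A sum of AKR1C1 and AKR1C2 alone was not fitted, so the part of the division between those copies was not tested.

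**Figure D5:**
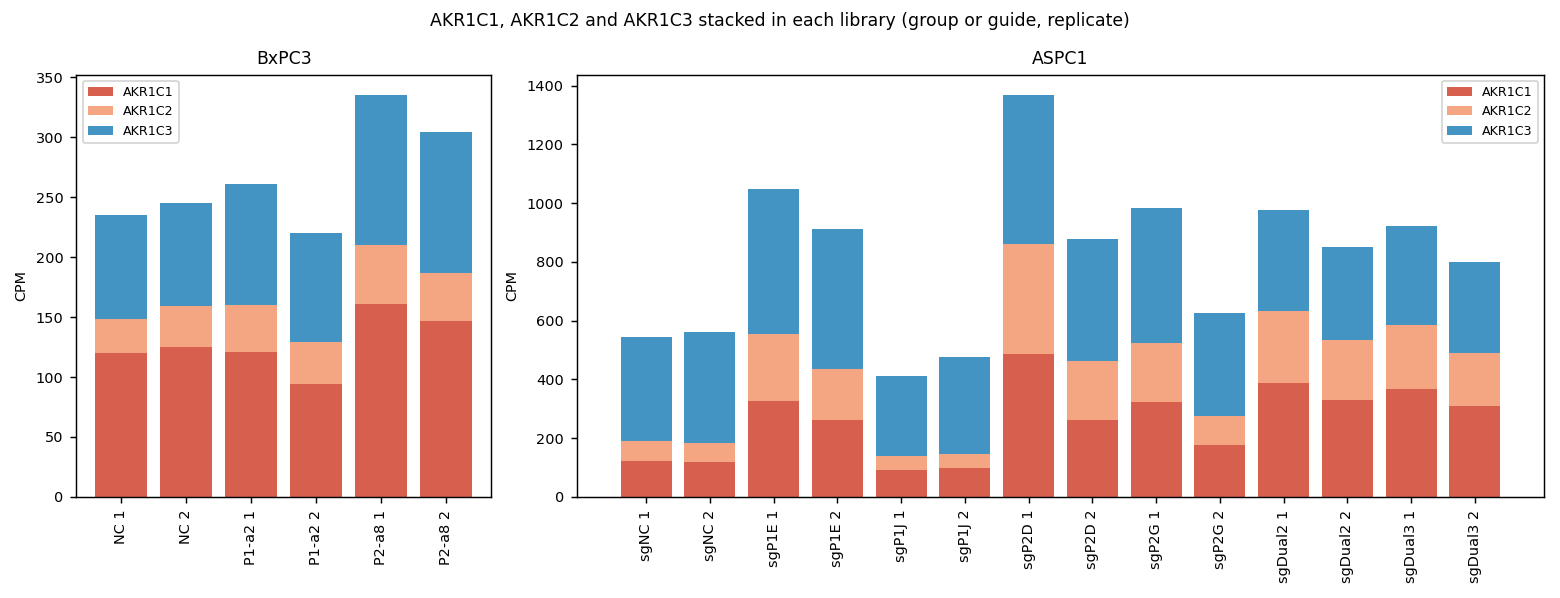
CPM of AKR1C1, AKR1C2 and AKR1C3, stacked, in each library of BxPC3 and ASPC1. In ASPC1 the AKR1C1 and AKR1C2 segments are larger under sgP1E and the sgP2 and sgDual guides than in sgNC, while AKR1C3 made up 35.4% to 39.0% of the bar in sgDual and 65.2% to 67.3% in sgNC.

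The transcripts of NRF2 itself and of its inhibitor were set beside these targets. NFE2L2 was at 153 and 160 CPM in sgNC and 213 to 217 in sgDual, a rise of log2 0.46 ± 0.0801 (adjusted p = 0.000531, edgeR), and rose in Panc10.05 with P1-a2 by 0.22 ± 0.0617. It did not pass with P2-a8 in Panc10.05 (0.05 ± 0.0619), in BxPC3 (-0.14 ± 0.0665 and -0.08 ± 0.0665), in sgP1 (-0.02 ± 0.0786) or in sgP2 (0.19 ± 0.0793). KEAP1 was at 172 and 178 CPM in Panc10.05 NC, 139.9 and 137 in P1-a2 and 119 and 124 in P2-a8, and fell with both (-0.34 ± 0.0595 and -0.53 ± 0.0598). It passed against the control in no group of BxPC3 or ASPC1.

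Of 15 regulators of NRF2, those 2 included, 7 rose and 5 fell in Panc10.05 with P1-a2 (beside 31.5% and 30.5% of all genes) and 4 rose and 5 fell with P2-a8 (beside 23.7% and 22.5%), where the falls with P1-a2 and the rises with P2-a8 were near the share over all genes. In BxPC3 6 rose and 0 fell with P1-a2 (beside 17.1% and 14.9%) and 1 rose and 0 fell with P2-a8 (beside 4.3% and 2.69%). In ASPC1, where 14 were tested, 5 rose and 0 fell in sgDual (beside 17.8% and 17.8%). None passed the edgeR test in sgP1 or sgP2, with 2 and 5 at an unadjusted p under 0.05. SQSTM1, which encodes p62, a protein that binds KEAP1, rose in sgDual from 747 to 2095 CPM in the mean (log2 1.49 ± 0.148) and in Panc10.05 with P1-a2 (0.78 ± 0.0587). MAFF, a small MAF partner, rose in sgDual (1.15 ± 0.113), and NFE2L1, a relative of NFE2L2, rose in BxPC3 with P1-a2 (0.58 ± 0.0607).

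A list of 40 other known NRF2 targets moved both ways in the induced lines. In Panc10.05, 16 rose and 9 fell of 33 tested with P1-a2 (beside 31.5% and 30.5% of all genes), and 15 rose and 6 fell with P2-a8 (beside 23.7% and 22.5%), with the falls at or under the share over all genes. In BxPC3, 11 rose and 10 fell of 37 with P1-a2 (beside 17.1% and 14.9%), and 6 rose and 1 fell with P2-a8 (beside 4.3% and 2.69%). The medians of their log2 changes, in that order, were 0.17, 0.16, 0.06 and 0.10, beside 0.02, 0.00, -0.01 and 0.01 over all genes.

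HMOX1, heme oxygenase, rose in both lines, in BxPC3 from 1.93 CPM in NC to 31.4 with P1-a2 and 9.22 with P2-a8 in the mean (log2 4.03 ± 0.146 and 2.26 ± 0.154). In Panc10.05 its changes were 1.68 ± 0.0796 and 1.02 ± 0.0809. OSGIN1, an oxidative stress-induced growth inhibitor, rose with P1-a2 in Panc10.05 (1.92 ± 0.0752) and BxPC3 (1.52 ± 0.382). Other targets fell. In Panc10.05 these included CYP4F11 with P1-a2 (-1.38 ± 0.114) and PTGR1 with P2-a8 (-0.60 ± 0.0711). In BxPC3 they included PIR (-0.83 ± 0.0903) and GPX2 (-0.76 ± 0.112) with P1-a2, and TRIM16 with P2-a8 (-0.34 ± 0.0708).

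In ASPC1, 6 rose and 0 fell of 37 of these other targets in sgP2 (beside 1.66% and 1.76% of all genes), and 18 rose and 3 fell in sgDual (beside 17.8% and 17.8%), with medians of 0.35 and 0.39. In sgP1 none passed the edgeR test, with 3 at an unadjusted p under 0.05. PIR, an iron-binding nuclear protein, rose in sgP2 (0.91 ± 0.175) and sgDual (1.89 ± 0.179). ALDH3A1, an aldehyde dehydrogenase, rose in sgDual (1.77 ± 0.328), and ABCC2, an exporter of glutathione conjugates, fell there (-1.88 ± 0.310).

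The other aldo-keto reductases differed in direction from gene to gene and from line to line. AKR7A3, which reduces aflatoxin aldehydes, rose in BxPC3 from 0.864 CPM in NC to 34.5 with P1-a2 and 10.14 with P2-a8 in the mean (log2 5.29 ± 0.186 and 3.52 ± 0.200), and fell in sgDual from 31.9 to 10.5 CPM (-1.61 ± 0.166). AKR1C4, a liver enzyme from the same gene cluster, was at 3.01 and 3.31 CPM in sgNC and 1.164 to 2.10 in sgDual, a fall (-0.95 ± 0.273) where AKR1C1 was higher. AKR1A1, a general aldehyde reductase, fell in Panc10.05 with both isoforms (-0.73 ± 0.0706 and -0.45 ± 0.0699). Of the 10 genes of that list, 5 were tested in Panc10.05, where 2 rose and 2 fell with P1-a2 (beside 31.5% and 30.5% of all genes) and 2 rose and 1 fell with P2-a8 (beside 23.7% and 22.5%). In BxPC3, of 7 tested, 4 rose and 1 fell with P1-a2 (beside 17.1% and 14.9%) and 4 rose and 0 fell with P2-a8 (beside 4.3% and 2.69%). In ASPC1, of 6 tested, 1 rose and 3 fell in sgDual (beside 17.8% and 17.8%).

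The genes whose pattern was most like that of NQO1 were ABCC3, a drug exporter that is on the list of other NRF2 targets, SLC20A1, a phosphate transporter, and TMEM150A. Likeness was the root mean square difference of the log2 change against the control of each line, over 2 groups of Panc10.05, 2 of BxPC3 and 6 guides of ASPC1, among 9311 genes with a mean of at least 5 CPM in each line. It was 0.169 for ABCC3, 0.178 for SLC20A1 and 0.225 for TMEM150A. Of the other 9 genes of the list, the nearest to NQO1 that could be ranked was SRXN1, at 0.378. Groups of a line share control libraries, so that these 10 values are not independent. AKR1B10, AKR1C1 and AKR1C2, which were not tested in Panc10.05, and AKR1C3, which was under 5 CPM there, could not be ranked.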

How the data were processed

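RNA from 26 libraries was measured as read counts per gene. The deposited tables hold raw counts per Ensembl gene identifier, 1 table per line. The submitters' processing notes name cutadapt 1.16, STAR 2.7.9a, featureCounts 1.6.3, DESeq2 1.36.0 and GRCh38, without roles or order; the annotation, the strand setting and the treatment of multiply mapped reads are not given in the sources used here. Groups and replicate numbers came from the labels.

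Each table was fitted whole with edgeR 4.0.16 (quasi-likelihood F test, TMM scaling, filterByExpr) in R 4.3.3, ASPC1 by genotype and, as a second fit, by guide. P-values were adjusted by Benjamini-Hochberg over all genes of a table, with a threshold of 0.05, and an SE is the log2 fold change over the square root of F. Levels per length used GENCODE v29 exon lengths, present for at least 99.79% of counts; identifiers matched gene names for 99.88% to 99.91%. On simulated counts of the comparison of P1-a2 with NC in Panc10.05 (17247 genes), 87% of genes changed by 1 log2 unit were recovered, in that of BxPC3 (17635 genes) 91%, and in that of sgP1 with sgNC (16992 genes) 96%. The simulation gave every gene the same spread and put no difference between guides. Its share for sgP1 therefore does not apply to genes whose guides differed, such as AKR1C1 and AKR1C2. Alternatives were DESeq2 1.42.0, other scalings, no filter, only the groups compared, a replicate block, each library left out, the fit by guide and the summed AKR1C genes.

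The genes and all lists were chosen with earlier results of these data known. All 10 genes, HNF4A, NFE2L2 and KEAP1 were named by rule, with, from each other list and comparison, up to 2 genes per direction with the largest change among those past the threshold, at a mean of at least 5 CPM and with no overlap between groups; AKR1C4, LYZ, CD3E and AL121758.1 were named after their values were seen. A gene that the rule also named is not reported here. Deviations of same-numbered libraries from their group means correlated at -0.0333 to 0.0234 in Panc10.05, 0.232 to 0.410 in BxPC3 and 0.227 to 0.677 in ASPC1. The numbers were therefore taken to pair libraries in BxPC3 and ASPC1, from the data alone, since the labels name no shared batch. The main fits leave this pairing out, and values with the replicate block are given beside them where a call changed.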

Additional observations from a re-analysis of the deposited data

Results flagged for a closer look

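The response to induced HNF4A differed between Panc10.05 and BxPC3 by an interaction term of the joint edgeR fit for 10 values. With P1-a2 against NC the log2 change in Panc10.05 minus that in BxPC3 was 2.41 for AKR1C3, 1.26 for SLC7A11, 1.09 for NQO1, 0.90 for GCLM, 0.58 for SRXN1 and -0.40 for TXNRD1, with adjusted p from 9.4e-10 (NQO1) to 0.00565 (SRXN1). With P2-a8 it was 2.02 for AKR1C3, 0.85 for GCLM, 0.85 for SRXN1 and 0.71 for NQO1. SLC7A11 was the 1 gene of these that rose in a line and fell in the other under the same construct. Line, dose, control construct and library series change together in these values and cannot be told apart. Among the 30 groups of 4 ASPC1 libraries examined over the 10 genes, no library stood apart by Dixon's test, where chance gives about 1 in 20. Each group holds 2 guides with 2 libraries each. Where the guides differ, the values form pairs, and the test can then hardly mark a library.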

How the results depend on the processing

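Of the counts of the 10 genes past the threshold, 97 stayed within 1.5 times under another setting and 11 moved; of the values of single genes, 970 stayed on the same side of the threshold, called or not, 54 gained a call and 7 lost it, and none that was called changed sign. Counts that moved were 6 for BxPC3 P2-a8 against NC without the filter and 6 with the replicate block (from 3), 7 for sgP2 against sgNC in the fit by guide (from 4), and 7 in DESeq2 and 8 in the fit by guide for sgP2 against sgP1 (from 4). For sgDual against sgP2 the count was 4 with total count scaling, 4 with the replicate block and 4 with only the 2 groups fitted (from 2). For sgP2D against sgP2G it was 2 without the filter (AKR1C1 and AKR1C2), from 0. For sgDual2 against sgDual3, also from 0, it was 1 without the filter (SLC7A11) and 2 with only the 2 groups fitted (GCLC and SLC7A11). The cause was not tested.

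With 1 library left out, counts ranged from 7 to 7 for P1-a2 against NC, 5 to 6 for P2-a8 against NC and 3 to 4 between isoforms in Panc10.05, and from 3 to 5 (3 without NC replicate 2), 1 to 3 (1 without NC replicate 1) and 6 to 8 in BxPC3. They ranged from 0 to 0 for sgP1, 0 to 4 for sgP2 (0 without sgNC replicate 1, 1 without sgNC replicate 2) and 3 to 4 for sgDual against sgNC (3 without either sgNC library). They were 3 to 6 for sgP2 against sgP1 (of 4), 4 to 5 for sgDual against sgP1, 2 to 4 for sgDual against sgP2 (4 without sgP2G replicate 2) and 2 to 3 for sgP1E against sgP1J (2 without sgP1E replicate 1, sgP1J replicate 1 or sgP1J replicate 2). They stayed at 0 for sgP2D against sgP2G and for sgDual2 against sgDual3, and were 5 to 6 and 4 to 4 for the differences between lines with P1-a2 and P2-a8.

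The replicate block changed no call other than those given with it above; with it the count for P1-a2 against NC in Panc10.05 was 7. Where leaving out a library left a group with 1 sample, that sample was assumed to vary like the other groups. In Panc10.05 depth limits AKR1B10, AKR1C1 and AKR1C2, which had at most 8 counts in a library.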

Other observations

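Libraries numbered 1 lay above those numbered 2 in 54 of 70 pairs of gene and guide in ASPC1, in 20 of 30 pairs of gene and group in BxPC3 and in 21 of 30 in Panc10.05. In ASPC1 this held for 10 of the 10 genes under sgP2D and under sgP2G, for 9 under sgP1E and for 5 under sgP1J and sgNC. The labels do not say what the numbers mark.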
